A study of Mus musculus with 100 samples.

Results

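Knockdowns of 7 subunits of the Mediator head module were compared directly with knockdowns of 8 subunits of its middle module in mouse embryonic stem cells. The head knockdowns were shMed6, shMed8, shMed11, shMed17, shMed18, shMed20 and shMed22, and the middle knockdowns were shMed4, shMed7, shMed9, shMed10, shMed19, shMed21, shMed26 and shMed31. They are 15 of the 50 groups and 30 of the 100 RNA-seq libraries of a series on knockdowns of Mediator, TFIID and SAGA subunits, with 2 libraries in each group. They were chosen by the module of the targeted subunit and not by any measured value. The libraries come from V6.5 cells, a mouse embryonic stem cell line kept on fibroblast feeders and separated from them before transfection. All groups, the controls included, received 1.8 µg of an shRNA plasmid and were selected with puromycin from 24 h after transfection, for 72 h. The control group, called control_B here, has 2 libraries of a control shRNA and is shared by all 15 knockdowns, so that their changes against it are not independent of each other. Whether a group's libraries are separate cultures is not in the labels, nor how many hairpins were used for each gene, or what the hairpin sequences were, and p-values over libraries may therefore measure technical spread only.

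Mediator is the large coactivator that links transcription factors bound to DNA with RNA polymerase II. Its head module contacts the polymerase and the general transcription factors at the promoter, its middle module joins the head to the tail and to the kinase module, and the head and middle together with the scaffold Med14 form the core of the complex. In embryonic stem cells Mediator is known for its part in transcription of the pluripotency genes. Med26 is a metazoan subunit with a domain like that of the elongation factor TFIIS, and its place among the middle subunits is the grouping used here.

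The 30 libraries had an estimated depth of 21.2 to 35.6 M (mega) reads, with medians of 25.01 M in the head and 26.10 M in the middle knockdowns. Values are RPKM, reads for each kilobase of transcript, scaled to sequencing depth, for the most abundant transcript of each gene, and changes are differences of log2(RPKM + 1). All 6 embryonic stem cell markers were detected in all 30 libraries, and their summed level was 585 to 836 RPKM in the head knockdowns, 524 to 816 RPKM in the middle knockdowns and 843 RPKM in the control. Of 14 fibroblast feeder markers, 12 were highest in shMed10, and the highest levels were 62.6 RPKM for Fn1, 5.11 RPKM for Twist1, 4.14 RPKM for Col5a1 and 3.10 RPKM for Col1a1. Postn, Lum and Dcn were at 0.169 RPKM or lower in every knockdown. The summed feeder markers were at 51.9 to 72.1 RPKM in the head, 46.8 to 82.3 RPKM in the middle and 51.5 RPKM in the control, most of it Fn1. Each of the 30 libraries was nearest to its own partner, with a root mean square distance of 0.124 to 0.150 (log2) between partners.

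Each of the 15 targets was at its lowest level in its own knockdown, and the head targets fell by 0.53 to 1.73 on the log2 scale. Med17, the scaffold of the head, stood at 4.29 and 3.998 RPKM in the shMed17 libraries against 16.6 and 15.5 RPKM in the control libraries. Med6, which lies where head and middle meet, stood at 7.65 and 7.60 RPKM against 25.5 and 26.4 RPKM. These 2 targets were left at 25.9% and 29.4% of their control level. Med11, which pairs with Med22, stood at 3.55 and 4.10 RPKM against 15.4 and 12.3 RPKM. Med22 stood at 5.52 and 4.76 RPKM against 13.7 and 13.8 RPKM. Med8, the subunit that holds the Med18 and Med20 pair on the head, stood at 7.30 and 7.11 RPKM against 19.7 and 19.1 RPKM. Of these, Med11 was left at 27.6% and Med8 and Med22 at 37.2% each. Med20 stood at 7.21 and 6.80 RPKM against 15.1 and 14.4 RPKM. Med18, its partner, stood at 3.995 and 4.55 RPKM against 6.80 and 6.41 RPKM. Med18 was thus the target with the most transcript left, 64.7% (60.5% and 68.9% in the single libraries), and Med20 followed with 47.5%.

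The middle targets fell by 1.03 to 2.29 on the log2 scale. Med19 and Med10 lie in the hook of the yeast complex. Med19 stood at 3.87 and 3.15 RPKM against 21.0 and 20.9 RPKM. Med10 stood at 6.47 and 5.66 RPKM against 31.4 and 29.0 RPKM. Med4, which pairs with Med9, stood at 5.16 and 5.37 RPKM against 24.9 and 24.3 RPKM. These 3 were the lowest of all 15, at 16.7%, 20.1% and 21.4% of control. Med7 stood at 3.78 and 3.40 RPKM against 14.7 and 13.7 RPKM. Med21, which forms a hinge with Med7, stood at 7.32 and 6.57 RPKM against 24.2 and 24.4 RPKM. Med31, which binds Med7 in yeast, stood at 1.90 and 1.96 RPKM against 8.00 and 8.22 RPKM. They were left at 25.3%, 28.6% and 23.8%. Med9 stood at 2.95 and 2.42 RPKM against 7.02 and 7.25 RPKM. Med26 stood at 3.804 and 3.14 RPKM against 8.13 and 8.07 RPKM. Med9 and Med26 were left at 37.7% and 42.9%, the highest values of the middle module.

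Every target fell in its own knockdown by limma over the set of libraries that share the control, with the largest adjusted p, 7.85e-06, for Med18. The fall averaged -1.30 ± 0.43 (SD, n = 7 knockdowns) in the head and -1.71 ± 0.45 (SD, n = 8) in the middle. The difference of 0.41 did not pass an exact permutation test over the 6435 splits of the 15 knockdowns (two-sided p = 0.094). It passed without shMed9 (0.49) and without shMed26 (0.51), the middle knockdowns with the most target left. The middle knockdowns thus included the deepest falls and the ranges overlapped, which is why the comparison of genes was also made at equal fall of the target.

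**Figure D1:**
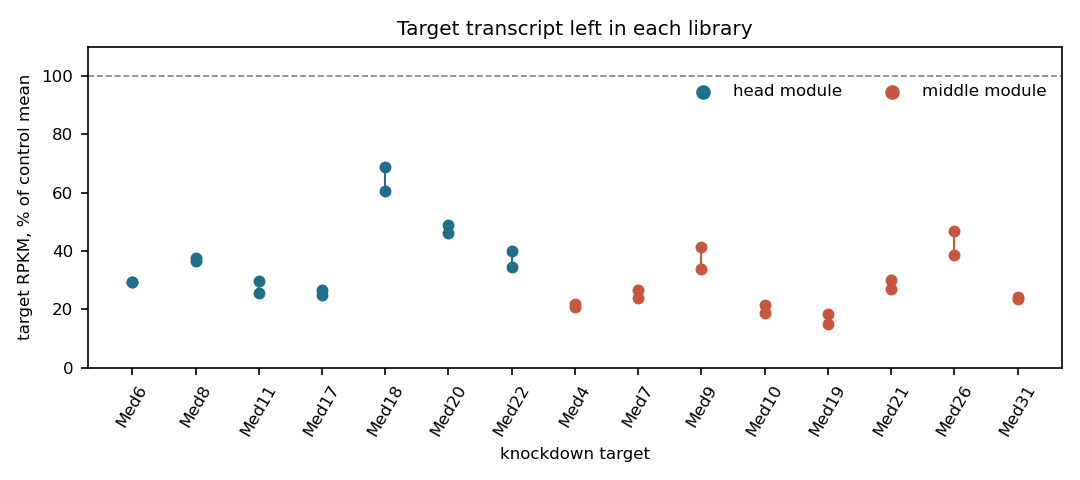
Target transcript left in each library, as percent of the mean of the 2 control libraries (dashed line at 100%), for the 7 head and 8 middle knockdowns; each point is a library and a line joins the 2 libraries of a knockdown. The values run from 15.02% in a shMed19 library to 68.9% in a shMed18 library.

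With the knockdown as the unit, 1 of 12328 tested genes (0.00811%) differed between the modules at an adjusted p under 0.05 by limma, and 674 had an unadjusted p under 0.05. The gene was Aoah, which encodes the lipase that inactivates bacterial lipopolysaccharide. It stood at 1.98, 2.30 and 2.62 RPKM (lowest, median and highest) in the head knockdowns and at 0.925, 1.39 and 1.60 RPKM in the middle knockdowns, against 1.55 and 1.78 RPKM in the control libraries. The 7 head knockdowns were all above the 8 middle ones, and so were the single libraries, with 1.90 RPKM or more in the 14 head libraries and 1.62 RPKM or less in the 16 middle libraries. The difference was 0.48 ± 0.07 (SE; adjusted p = 0.0345, limma). Against control_B, Aoah rose in 4 of 7 head knockdowns and fell in 2 of 8 middle ones, shMed7 (-0.47) and shMed19 (-0.29). In the kinase module it stood at 2.44, 1.91, 2.22 and 2.34 RPKM in shMed12, shMed13, shCcnc and shCdk8. In the upper tail it stood at 2.29, 1.70, 2.16 and 1.40 RPKM in shMed27, shMed28, shMed29 and shMed30. Levels like those of the head thus also occurred outside it. Aoah is a low gene and lies under the mean of 3 RPKM that the rule for named genes asked of called genes. The call was lost in 22 of the other settings tried, among them the fits without any 1 of shMed6, shMed8, shMed11, shMed17, shMed18, shMed22, shMed4, shMed10, shMed19, shMed21 or shMed26 (adjusted p from 0.0517 to 0.135, limma). The difference stayed between 0.41 and 0.51 in all settings that kept the pseudocount of 1.

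The next smallest p belonged to Elmo1, the gene before Aoah in the order of protein-coding genes of chromosome 13 (RefSeq, GRCm38.p6). Elmo1 encodes a partner of Dock proteins in the activation of Rac. It stood at 2.00, 2.24 and 2.57 RPKM in the head and at 1.52, 1.73 and 2.06 RPKM in the middle knockdowns, against 2.58 and 2.78 RPKM in the control libraries. The modules overlapped only where shMed31, the highest of the middle, passed shMed8, the lowest of the head. The difference was 0.25 ± 0.05 (SE) and did not pass (adjusted p = 0.735, limma). Against control_B Elmo1 fell in 4 of 7 head and in all 8 middle knockdowns, so that neighbouring genes were both higher in the head, with Aoah above and Elmo1 below its control level there.

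Hes1, a repressor and Notch target, was the single gene with all head knockdowns below all middle ones, so that 2 of 12328 genes (0.0162%) did not overlap. It stood at 7.38, 7.78 and 7.97 RPKM in the head and at 8.20, 9.85 and 11.9 RPKM in the middle, against 8.64 and 8.87 RPKM in the control. The head knockdowns lay close together below the control, and the middle ones spread from just below it to above it. Unlike those of Aoah, the single libraries overlapped, with up to 8.35 RPKM in the head and down to 7.44 RPKM in the middle. The difference was -0.30 ± 0.08 (SE; adjusted p = 0.735, limma), and against control_B Hes1 rose in shMed4, shMed7 and shMed10 and was called in no head knockdown. That 2 genes did not overlap is not read as a difference of the modules.

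Other genes with the smallest p did not pass, and are given by the rule for that case. Tbx3, a transcription factor of the naive state, stood at 8.62, 10.7 and 14.1 RPKM in the head and 11.5, 14.5 and 17.3 RPKM in the middle (-0.37 ± 0.10, SE), and it rose against control_B in 5 of 8 middle and 1 of 7 head knockdowns. Nodal, the TGF-beta family ligand, stood at 16.1, 18.97 and 22.4 RPKM and at 19.8, 22.9 and 26.6 RPKM (-0.25 ± 0.07, SE). Nodal fell in 5 of 7 head knockdowns and rose in 3 of 8 middle ones, shMed10, shMed26 and shMed31, against 22.2 and 21.1 RPKM in the control. Sfi1, Fam43a and Lrrc51 differed by -0.30, -0.23 and -0.30. On the other side, Stk38, an NDR family kinase, differed by 0.22 ± 0.06 (SE) and fell in 6 of 8 middle and 1 of 7 head knockdowns. As3mt, the arsenite methyltransferase, differed by 0.29 ± 0.07 (SE) and fell in all 8 middle and 3 of 7 head knockdowns. 2410141K09Rik and C330024D21Rik differed by 0.29 and 0.25. The adjusted p of all these genes was 0.735 (limma).

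Pax6, a neural transcription factor chosen after its values were seen, stood at 2.30, 3.64 and 4.76 RPKM in the head and at 1.62, 2.49 and 3.33 RPKM in the middle knockdowns, against 2.99 and 2.97 RPKM in the control. It rose in 4 of 7 head knockdowns and fell in 4 of 8 middle ones, and shMed8 stood apart from its module with a fall of 0.27 on the log2 scale. The difference of 0.47 ± 0.13 (SE) did not pass (adjusted p = 0.735, limma).

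**Figure D2:**
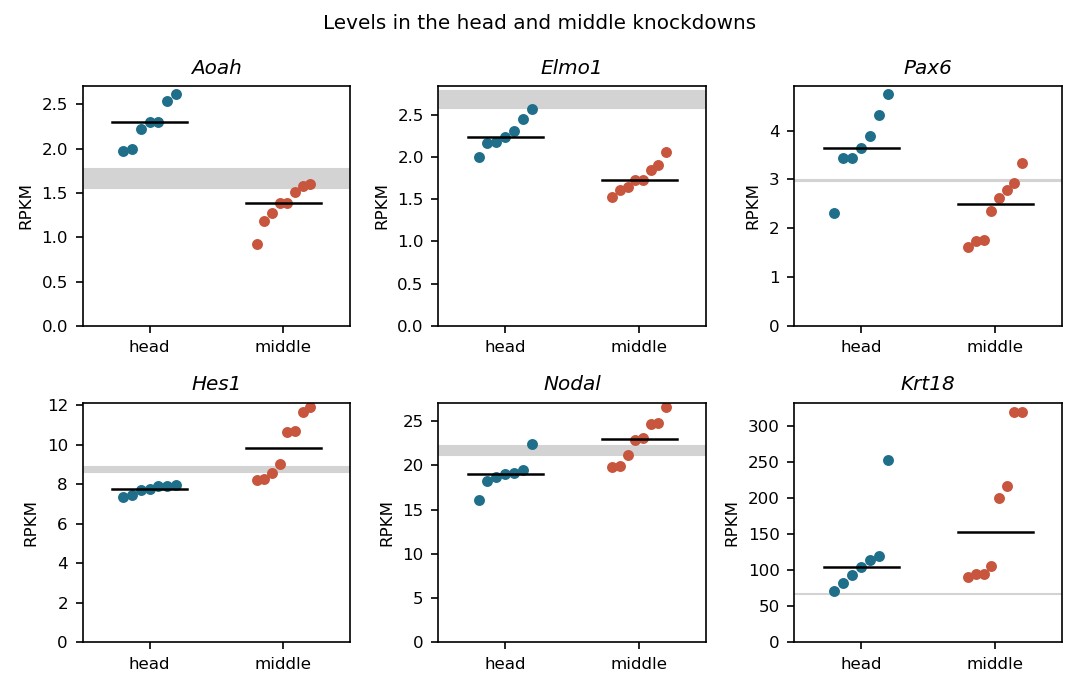
Levels in RPKM of Aoah, Elmo1, Pax6, Hes1, Nodal and Krt18 in the 7 head and 8 middle knockdowns; each point is the mean of the 2 libraries of a knockdown, black lines are medians and the grey band spans the 2 control libraries. Aoah and Hes1 do not overlap between the modules, while Krt18 is high in single knockdowns of both, 253 RPKM in shMed17 and 320 RPKM in shMed4.

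The data set bounds on what the module could have changed across all its knockdowns. The 95% interval of the difference had a median width of ±0.15 on the log2 scale, and for 11371 genes (92.2%) it lay within ±0.5. The difference of the means exceeded 0.5 in 29 genes (0.235%). The widest in each direction were Slc7a3, a carrier of cationic amino acids, and Pmp22, a myelin membrane protein, both chosen after their values were seen. Slc7a3 stood at 27.1, 40.5 and 49.0 RPKM in the head and 11.03, 23.2 and 42.9 RPKM in the middle (0.68 ± 0.25, SE; adjusted p = 0.735, limma). Pmp22 stood at 2.40, 3.11 and 5.33 RPKM in the head and 3.02, 4.58 and 37.4 RPKM in the middle (-0.86 ± 0.40, SE; adjusted p = 0.735, limma), with its highest value in shMed10. Both overlapped widely between the modules.

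At equal fall of the target, 0 of 12328 genes (0%) passed by limma, 291 had an unadjusted p under 0.05, and the smallest adjusted p was 0.166. The difference of Aoah stayed at 0.49 and that of Hes1 at -0.28. When the 30 libraries were taken as the unit in place of the 15 knockdowns, 6338 genes passed, 3167 higher and 3171 lower in the head. That fit compares these particular knockdowns, whose spread it leaves out, and its calls do not speak of the modules.

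Knockdowns of the same module differed widely from each other. Of the summed squares over all genes, 8.04% lay between the modules (1 degree of freedom), 79.9% between knockdowns within a module (13 degrees of freedom) and 12.03% between libraries of a knockdown (15 degrees of freedom). For each degree of freedom these are mean squares of 0.0998, 0.0764 and 0.00996. With libraries as the unit, 7939 genes (64.4%) differed among the 7 head knockdowns and 10999 (89.2%) among the 8 middle ones (limma F test, a comparison added after the data were seen). The median distance between knockdowns, as root mean square log2 difference, was 0.172 for the 21 head pairs, 0.302 for the 28 middle pairs and 0.252 for the 56 pairs of a head and a middle knockdown.

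The nearest neighbour was of the same module for 8 of 15 knockdowns. Med18 and Med20, which form a heterodimer, were each other's nearest (0.131), as were Med4 and Med10 (0.231). shMed6 was nearest to shMed9 and shMed9 to shMed18, whereas shMed19 was nearest to shMed17, a head knockdown, and shMed7 to shMed6. On the first principal component, with 48.2% of the variance, shMed10, shMed4, shMed19 and shMed17 stood at one end. shMed7 stood alone on the second, with 13.3%.

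**Figure D3:**
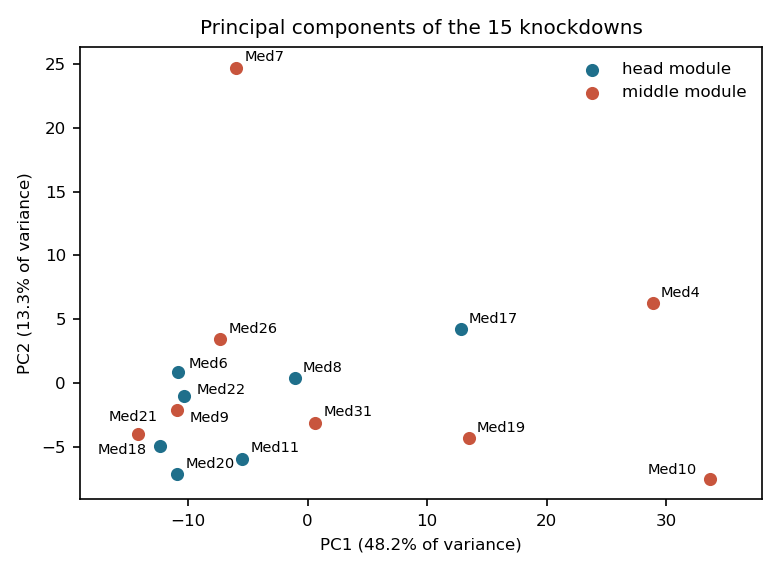
First and second principal components of the 15 knockdowns (mean log2(RPKM + 1) of 2 libraries, 12328 genes), with the share of the variance on each axis. Head and middle knockdowns are mixed, with 4 knockdowns of both modules at the right and Med7 alone at the top.

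The size of the change, the root mean square log2 difference from control_B over all tested genes, was 0.141, 0.169 and 0.325 (lowest, median and highest) in the head knockdowns. Of the head, shMed17 stood apart with 0.325, since the next was shMed22 with 0.196. In the middle it ran from 0.144 in shMed9 to 0.471 in shMed10. The means were 0.192 ± 0.062 (SD, n = 7) and 0.288 ± 0.119 (SD, n = 8), and their difference of -0.0958 did not pass (exact permutation test, two-sided p = 0.0817). It passed without shMed17 (-0.118), without shMed9 (-0.116) or without shMed21 (-0.111).

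Across the 15 knockdowns the size of the change was larger where the target had fallen further (Pearson r = -0.770, adjusted p = 6.6e-04; Spearman rho = -0.807, adjusted p = 7.8e-04; permutation tests, 2 relations computed). The Pearson r was -0.768 without shMed18 and shMed20, -0.570 within the head (n = 7) and -0.806 within the middle (n = 8). All values share the control libraries. When the straight line of size on fall was taken away, a step added after the data were seen, the difference between the modules was -0.0249 (exact permutation test, two-sided p = 0.494). The line was fitted to all 15 knockdowns without the module, so it can take up part of a module difference. No conclusion on the modules is drawn from that step.

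Knockdowns with like falls differed in size. The targets of shMed17 and shMed7 both fell by 1.73, and their sizes were 0.325 and 0.294. The targets of shMed6 and shMed31 both fell by 1.64, with sizes of 0.163 and 0.234. shMed11 and shMed21, with falls of 1.62 and 1.67, had 0.169 and 0.179. shMed20 and shMed26, with falls of 0.98 and 1.03, had 0.153 and 0.205. These falls are on the scale of log2(RPKM + 1), which understates the fall of low genes. As percent of control, Med6 and Med31 were less alike, at 29.4% and 23.8%, as were Med20 and Med26, at 47.5% and 42.9%. In both of these pairs the knockdown with less target left had the larger size. No rule chose these pairs, and other pairings would give other counts, so no tendency of a module is read from them.

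**Figure D4:**
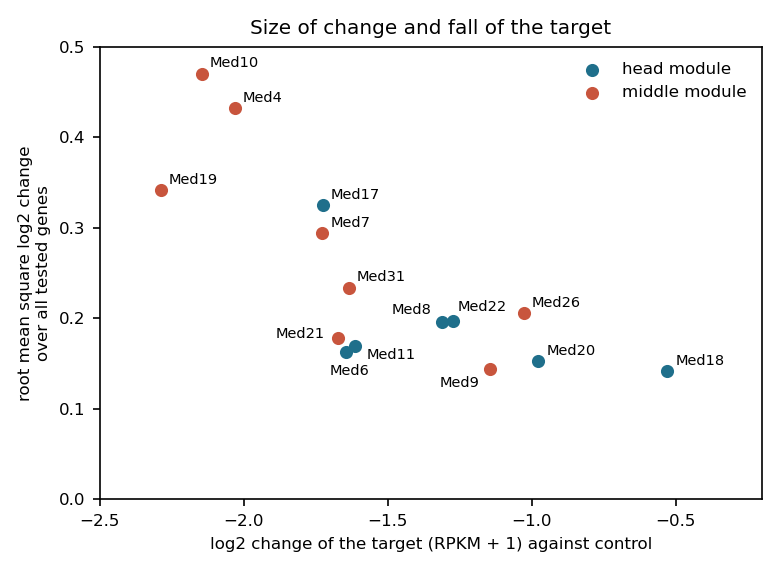
Root mean square log2 change against control over 12328 genes (y axis) and log2 change of the target (x axis) for the 15 knockdowns. Sizes run from 0.141 in shMed18, with the smallest fall, to 0.471 in shMed10, and the head and middle points lie along one band. The middle knockdowns shMed10 and shMed4 are the highest, and shMed17 is the highest of the head.

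In numbers of genes, 1094 (8.87%) changed in shMed18, 1431 (11.6%) in shMed20, 1753 (14.2%) in shMed6, 2077 (16.8%) in shMed11, 2856 (23.2%) in shMed8, 2901 (23.5%) in shMed22 and 6142 (49.8%) in shMed17 (adjusted p under 0.05, limma). In the middle module 1200 (9.73%) changed in shMed9, 2556 (20.7%) in shMed21, 3700 (30%) in shMed31, 3701 (30%) in shMed26, 5736 (46.5%) in shMed7, 6120 (49.6%) in shMed19, 7722 (62.6%) in shMed4 and 8150 (66.1%) in shMed10. The means were 2608 in the head and 4861 in the middle, and their difference did not pass the exact permutation test (two-sided p = 0.067). Most of these changes were small, since genes that passed with a change of 1 or more on the log2 scale numbered 381 up and 179 down in shMed10, 126 up and 54 down in shMed17, and 3 up and 0 down in shMed18. The counts rest on 2 control libraries, and without 1 library of the knockdown or of the control they were lower. They came to 510 to 687 for shMed18, 783 to 924 for shMed20, 1032 to 1198 for shMed6, 695 to 786 for shMed9, 1280 to 1509 for shMed11 and 1624 to 1842 for shMed21, with any of the 4 libraries left out. For shMed10 they were 7285 to 7474.

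Gene lists were then read in each knockdown against control_B, beside the share of all genes called in the same direction. That share was 3.97% higher and 4.91% lower in shMed18, 5.82% and 5.78% in shMed20, 6.42% and 7.8% in shMed6, 9.09% and 7.75% in shMed11, 13.1% and 10% in shMed8, 12% and 11.5% in shMed22, and 23.9% and 26% in shMed17. In the middle it was 5.27% higher and 4.46% lower in shMed9, 8.86% and 11.9% in shMed21, 16.6% and 13.4% in shMed26, 17.8% and 12.2% in shMed31, 20.7% and 25.8% in shMed7, 23.3% and 26.4% in shMed19, 29.9% and 32.7% in shMed4, and 31.6% and 34.5% in shMed10. In no list did any member differ between the modules (limma).

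Contractile and cytoskeletal genes known as targets of SRF and its myocardin-related partners rose in all 15 knockdowns. Of 19 tested members, 12 to 18 rose in the head knockdowns and 10 to 19 in the middle ones. Their median change ran from 0.21 in shMed6 to 1.08 in shMed17 in the head, and from 0.16 in shMed21 to 1.98 in shMed4 in the middle. All 19 had a lower mean in the head than in the middle, as had 6093 of all 12328 genes. Their median difference was -0.24 beside 0.00165 over all genes, and at equal fall of the target the median was 0.05. Of the 19, 0 had an unadjusted p under 0.05 (limma), so the shared direction is not read as a module difference. Without 1 of the 4 libraries behind each comparison, 9 to 19 members rose in the head knockdowns and 6 to 19 in the middle ones. In bulk RNA, more cells with such a transcript and more of it in each cell cannot be told apart.

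SRF binds the CArG box, CC and GG around a run of A and T. Such a box lay in the promoter window, 250 bases before to 50 after the start, of 7 of the 17 list members that RefSeq's promoter table holds (GRCm38.p6), and in 535 of 32851 windows of all genes (1.63%); the box reads alike on both strands, and the genes are Acta1, Actc1, Actg1, Cnn2, Myl9, Srf and Vcl. The windows of 4 of them are printed, 5′ to 3′ on the strand of the gene with the CArG boxes in capitals, because their genes share the box and moved to different extents. They lie at chr17:46556113-46556412 on the minus strand (Srf), and on the plus strand at chr14:20929148-20929447 (Vcl), chr10:79988350-79988649 (Cnn2) and chr2:156775214-156775513 (Myl9). A match describes the letters and not a bound site. The list was made of known SRF targets, so its share of boxes follows from that choice and is no result of these data. Genes were counted for the list and single windows for all genes, so the shares are counted differently.
Srf: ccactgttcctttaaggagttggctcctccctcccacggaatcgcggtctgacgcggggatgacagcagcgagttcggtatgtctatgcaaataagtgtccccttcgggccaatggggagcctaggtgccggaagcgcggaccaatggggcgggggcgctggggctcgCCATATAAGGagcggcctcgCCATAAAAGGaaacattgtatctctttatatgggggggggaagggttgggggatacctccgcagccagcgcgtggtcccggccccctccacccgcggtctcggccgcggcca
Vcl: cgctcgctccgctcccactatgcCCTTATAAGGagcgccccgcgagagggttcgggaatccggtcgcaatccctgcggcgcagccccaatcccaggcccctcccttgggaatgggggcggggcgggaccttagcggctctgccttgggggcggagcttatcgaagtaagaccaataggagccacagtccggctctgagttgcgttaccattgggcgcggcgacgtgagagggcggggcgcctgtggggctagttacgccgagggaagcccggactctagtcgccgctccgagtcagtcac
Cnn2: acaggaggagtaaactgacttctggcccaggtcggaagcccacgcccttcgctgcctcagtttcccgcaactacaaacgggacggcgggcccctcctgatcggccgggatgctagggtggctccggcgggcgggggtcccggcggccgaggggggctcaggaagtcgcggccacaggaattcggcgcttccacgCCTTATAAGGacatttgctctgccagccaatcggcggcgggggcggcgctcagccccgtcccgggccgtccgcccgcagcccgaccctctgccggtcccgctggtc
Myl9: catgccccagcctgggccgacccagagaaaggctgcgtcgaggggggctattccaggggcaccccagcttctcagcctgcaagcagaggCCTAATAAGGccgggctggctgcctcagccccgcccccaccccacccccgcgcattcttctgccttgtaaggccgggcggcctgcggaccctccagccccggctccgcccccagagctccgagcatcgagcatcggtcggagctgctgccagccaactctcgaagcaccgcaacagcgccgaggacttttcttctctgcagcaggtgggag

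Vcl, the focal adhesion protein vinculin, stood at 32.8, 34.3 and 42.8 RPKM in the head and at 31.7, 36.0 and 67.9 RPKM in the middle, and rose in all 15 knockdowns against 28.8 and 28.9 RPKM in the control. Cnn2, a calponin that binds actin, stood at 48.3, 59.2 and 92.5 RPKM in the head and 46.5, 65.7 and 137 RPKM in the middle against 47.5 and 46.2 RPKM, and rose in 6 knockdowns of each module. Myl9, a myosin light chain, stood at 15.3, 19.8 and 46.0 RPKM in the head and 11.3, 20.6 and 85.3 RPKM in the middle against 14.0 RPKM in each control library. Myl9 rose in 6 head and 5 middle knockdowns and fell in shMed26, so that the modules overlapped over the whole range of the head. Srf itself, with 2 boxes, moved least, at 16.9, 18.6 and 21.3 RPKM in the head and 17.9, 18.98 and 25.1 RPKM in the middle against 17.98 and 16.4 RPKM. It rose in shMed17, shMed4, shMed10 and shMed19, the 4 knockdowns at the end of the first principal component.

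The muscle actins and smooth muscle genes spread most. Acta1 stood at 14.8, 20.4 and 50.3 RPKM in the head and 13.4, 21.3 and 133 RPKM in the middle against 9.22 and 10.3 RPKM, and rose in all 15 knockdowns. Acta2 stood at 4.84, 9.55 and 22.3 RPKM in the head and at 2.36, 9.35 and 85.6 RPKM in the middle, against 3.87 and 2.85 RPKM. It rose in all 7 head and 7 of 8 middle knockdowns and fell in shMed7. Tagln, an actin-binding protein of smooth muscle, rose in all 15 knockdowns, from 35.7 and 33.6 RPKM in the control to 163 RPKM in shMed17 and 388 RPKM in shMed10. Their medians were close in the modules, and the extremes of the middle were shMed4 and shMed10. Actin genes resemble each other, and their separate levels are uncertain because the handling of reads that match several of them is not stated. Acta2 and Tagln are also fibroblast genes, and 12 of the 14 feeder markers were highest in shMed10, Col1a1 and Col1a2 at 3.10 and 1.51 RPKM against 0.386 and 0.299 RPKM in the control. The part of feeder cells in these values was not tested.

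Trophectoderm genes rose in most knockdowns. Of 11 tested, 1 to 9 rose in the head knockdowns and 6 to 11 in the middle ones. The exception was shMed18 with 1, and in shMed20 4 rose and 2 fell, while at most 1 fell in any other knockdown. Without single libraries the counts were 0 to 9 and 4 to 11. Krt18, a keratin of simple epithelia, stood at 70.7, 104 and 253 RPKM in the head and at 91.1, 153 and 320 RPKM in the middle, against 66.9 and 66.5 RPKM in the control. It rose in 6 of 7 head and in all 8 middle knockdowns, with 200 RPKM or more in shMed17, shMed4, shMed10, shMed19 and shMed31 and 119 RPKM or less in the others. Its difference between the modules was -0.52 ± 0.33 (SE; adjusted p = 0.735, limma), and -0.05 at equal fall. Gata3, a trophectoderm transcription factor, rose in all 15 knockdowns, from 1.205 and 1.146 RPKM in the control to 1.68, 1.91 and 3.28 RPKM in the head and 1.68, 3.74 and 6.45 RPKM in the middle. The median difference of the list was -0.42 between the modules and -0.05 at equal fall.

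Targets of YAP and TEAD, the effectors of Hippo signalling, rose in 4 to 9 of 10 members in the head knockdowns and 5 to 10 in the middle ones. Ccn1, the secreted matrix protein that is a common YAP readout, rose in all 15, from 44.9 and 45.9 RPKM to 53.1, 66.1 and 124 RPKM in the head and 59.3, 88.7 and 191 RPKM in the middle. The modules overlapped over most of their range, and the difference of -0.43 ± 0.24 (SE) did not pass (adjusted p = 0.735, limma).

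Genes of the integrated stress response, which ATF4 drives when amino acids or folding fail, fell in both modules. Of 17 tested, 6 to 14 fell in the head knockdowns and 2 to 15 in the middle ones, with shMed9 at 2 and shMed7 at 15. Chac1, a glutathione-degrading enzyme and ATF4 target, fell in all 7 head and 6 of 8 middle knockdowns. It stood at 5.90, 9.22 and 9.65 RPKM and at 4.23, 6.03 and 11.5 RPKM, against 12.6 and 11.8 RPKM in the control.

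Pluripotency genes were unevenly affected. Of 14 naive pluripotency genes 1 to 11 fell in the head knockdowns and 3 to 13 in the middle ones, and up to 7 rose, in shMed22. Klf4 fell in all 15 knockdowns, from 36.5 and 33.7 RPKM to 11.003, 26.1 and 30.05 RPKM in the head and 8.46, 27.4 and 28.5 RPKM in the middle. Tcf15, a transcription factor of cells leaving the naive state, fell in all 7 head and 7 of 8 middle knockdowns, and stood at 35.1, 60.9 and 79.8 RPKM and at 21.9, 64.9 and 97.9 RPKM against 115 and 102 RPKM. Pou5f1, the core factor Oct4, fell in 5 of 7 and 7 of 8, to 284 RPKM in shMed17 and 200 RPKM in shMed10 from 436 and 413 RPKM. Nanog stood at 25.1, 54.4 and 96.5 RPKM in the head and 26.9, 51.5 and 83.0 RPKM in the middle, against 60.9 and 58.4 RPKM. It rose in shMed22 and in shMed31 and fell in 4 head and 5 middle knockdowns, so that both directions occurred within each module.

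Several lists moved in single knockdowns across the module line. Proteasome genes rose in 18 of 25 members in shMed7 and fell in 21 of 25 in shMed10, both of the middle module, and in the head at most 7 rose (shMed22) and 7 fell (shMed17). Psmb5, a catalytic subunit, stood at 84.1 RPKM in shMed7 and 61.7 RPKM in shMed10 against 76.8 and 68.2 RPKM in the control, and of the 15 knockdowns it was called in shMed10 alone. Primitive endoderm genes rose in 14 of 15 members in shMed26 and in 0 of 15 in shMed7, where 9 fell. Lama1, a basement membrane laminin, stood at 82.8 RPKM in shMed26 and 33.9 RPKM in shMed7 against 47.5 and 49.3 RPKM. shMed18 and shMed6 had the most primitive endoderm genes higher in the head, with 7 and 6 of 15. Immediate early genes rose in 9 of 12 members in shMed26, 8 in shMed4, and 7 in shMed17 and shMed10, with at most 6 in the others.

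All 4 tested genes of the 2-cell-like state rose in shMed11, shMed10, shMed19, shMed21 and shMed31, and all 4 fell in shMed7. Zscan4c, which marks that state, stood at 8.18 RPKM in shMed21 and 1.15 RPKM in shMed7 against 3.46 and 2.96 RPKM in the control. Zscan4 genes are near copies of each other, so their levels cannot be separated with certainty. Cytosolic ribosomal protein genes fell in 20 of 20 members in shMed4 and shMed10, in 16 in shMed7 and shMed17, and in at most 3 in the other 6 head knockdowns. G1/S and replication genes fell in 16 of 17 in shMed4 and in 14 in shMed10 and shMed17, but rose in 10 in shMed22, 8 in shMed21 and 7 in shMed7. Ccne1, cyclin E1, stood at 112 RPKM in shMed7 and 45.9 RPKM in shMed10 against 94.0 and 94.5 RPKM. Of 20 p53 targets, 11 to 13 rose in shMed8, shMed17, shMed4, shMed7, shMed10, shMed26 and shMed31, and at most 8 in the others.

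**Figure D5:**
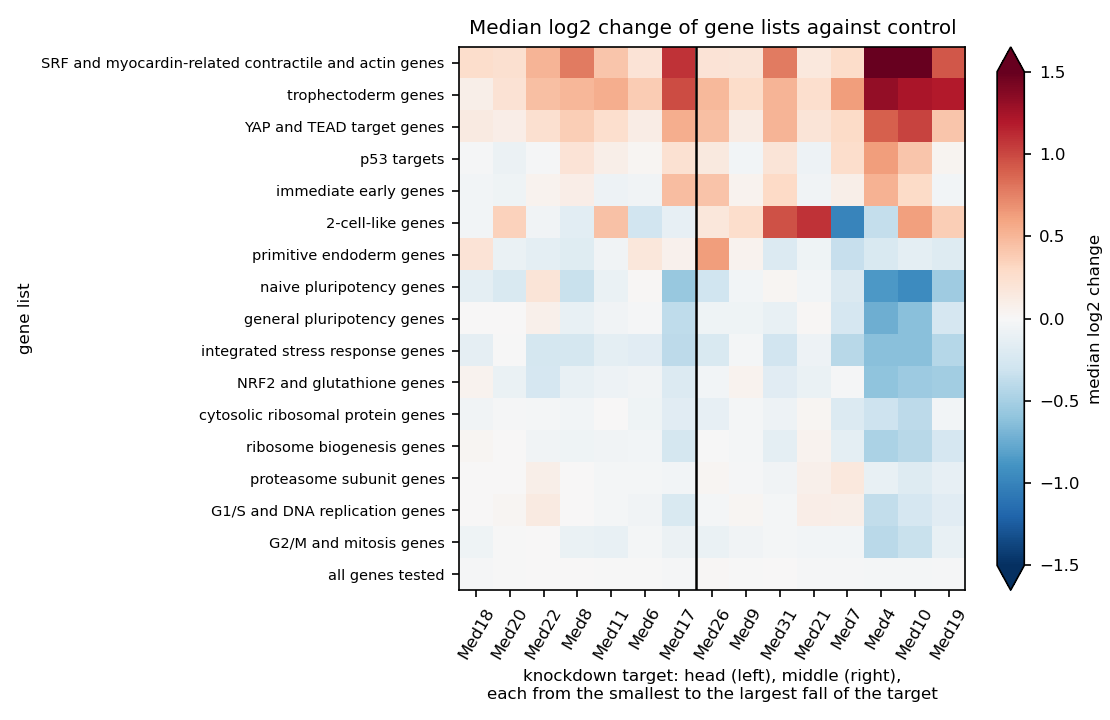
Median log2 change against control (colour) of 16 gene lists and of all tested genes (rows) in the 15 knockdowns (columns; head left and middle right of the line, each from the smallest to the largest fall of the target). The top 3 lists are above 0 in every column, from a faint 0.08 for trophectoderm genes in a head knockdown to 1.98 in shMed4. The primitive endoderm list is at 0.63 in shMed26, and the 2-cell-like list runs from -0.996 in shMed7 to 1.08 in shMed21.

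The other subunits of Mediator had small median changes, as all genes did. Of 18 subunit genes outside the head and middle lists, 1 to 4 rose and 1 to 6 fell in the head knockdowns, and 0 to 6 rose and 1 to 8 fell in the middle ones. Over all genes 3.97% to 23.9% rose and 4.91% to 26% fell in the head knockdowns. In the middle ones 5.27% to 31.6% rose and 4.46% to 34.5% fell. The median change of the 18 genes lay between -0.06 and 0.04 in all 15, beside -0.03 to 0.01 over all genes. The counts are thus not read as a result about these subunits. The targets themselves were mostly level in the knockdowns of other subunits: Med17, for instance, stood between 13.9 and 16.1 RPKM in the 14 others. Med11 was the widest, with 9.62 RPKM in shMed10, where 4 of 7 head and 4 of 8 middle subunit genes fell, Med10 included. Genes of RNA polymerase II fell in 9 of 12 members in shMed10 and rose in 6 in shMed26, and in the head module at most 5 fell, in shMed17.

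Genes were also sought that followed the fall of the target across all 15 knockdowns with the module in the fit. 421 genes passed (3.41%; limma), of which 222 (1.8%) were lower and 199 (1.61%) higher where the target had fallen further, and 3813 had an unadjusted p under 0.05. The count hangs on single knockdowns: it ran from 0 to 1047 when 1 knockdown was left out, and was 9 from replicate 2 alone and 0 from replicate 1 alone. It was 0 without shMed17, shMed20, shMed9, shMed10, shMed19, shMed26 or shMed31. The genes of smallest p are given as descriptions of the slope, the log2 change of the gene for each log2 unit of the target's own change, so that a positive slope means a lower gene where the target fell further.

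Fkbp11, a prolyl isomerase of the secretory pathway, stood at 6.19, 8.00 and 10.9 RPKM in the head and 3.96, 6.15 and 9.92 RPKM in the middle, against 9.39 and 11.1 RPKM. Its slope was 0.70 ± 0.10 (SE; adjusted p = 0.0249, limma), and it was lowest in shMed17 within the head and in shMed4 within the middle. Gsx1, a homeobox gene, had the steepest slope of the named genes, 1.41 ± 0.24 (SE), with 1.01 RPKM in shMed17, 0.514 RPKM in shMed19 and 8.97 RPKM in shMed26. Twf2, an actin-binding twinfilin, and Mmp11, a matrix metalloprotease, had slopes of 0.58 and 0.44. In the other direction AI661453 stood at 1.89, 3.33 and 8.24 RPKM in the head and 2.79, 5.16 and 11.5 RPKM in the middle (slope -1.15 ± 0.18, SE). Erbb3, a neuregulin receptor, had a slope of -0.65, with 6.19 RPKM in shMed17 and 8.59 RPKM in shMed19 against 3.30 and 3.23 RPKM in the control. Ston2, an endocytic adaptor, and Dysf, a membrane repair protein, had slopes of -0.49 and -0.89. The adjusted p of these 7 genes was 0.0386 (limma). In each of the 8 genes the head knockdowns ran from shMed17 at one end to shMed18 at the other. Within the head these had the deepest and the smallest fall of the target. The genes were picked by their slope on that fall, so the order goes with the choice and is no separate result.

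Of the lists, ribosome biogenesis genes had 5 of 18 members among those lower with a deeper fall, Wdr12 (slope 0.41) among them, and NRF2 and glutathione genes 3 of 10. Trophectoderm genes had 4 of 11, SRF targets 3 of 19 and YAP and TEAD targets 2 of 10 among those higher, with Krt18 (-1.13), Gata3 (-0.81) and Cnn2 (-0.79) among them. Over all genes the shares were 1.8% lower and 1.61% higher. These lists had the most such members, and other lists had at most 2 lower and at most 1 higher. None of these calls stood when shMed17, shMed20, shMed9, shMed10, shMed19, shMed26 or shMed31 was left out.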

How the data were processed

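The authors deposited RPKM values for RefSeq transcripts, 34995 lines for each library. Per the submitters' processing notes the reads were processed with TopHat2 and mm9, and per the labels' protocols the libraries were stranded mRNA libraries of total RNA. How reads were counted, with which strand setting and filters, is not stated. Of the IDs, 33481 were named by RefSeq and 188 by GENCODE, and 1186 were left out, which gave 24206 genes. The transcript with the highest mean over all 100 libraries stood for its gene. Depth was estimated from the step that 1 read makes in RPKM, and 99.79% of the values tried came out as whole reads within 0.01.

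Genes with 1 RPKM or more in at least 2 of the 30 libraries were tested on log2(RPKM + 1), a scale that understates the change of low genes, with limma 3.58.1 in R 4.3.3 (trend, Benjamini-Hochberg adjusted p under 0.05). The unit was the knockdown, the mean of 2 libraries, without and with the fall of the target in the fit. Changes against control used single libraries of all groups that share control_B. Single values were compared by exact permutation over knockdowns. Genes are named by rule: the targets, the called genes with a mean of 3 RPKM or more, or the 6 of smallest p in a direction where fewer passed, and the 4 of smallest p that follow the fall. Aoah was named as 1 of the 6 of smallest p. Acta1, Acta2, Tagln and the other list members, Pax6, Slc7a3, Pmp22 and the genes with printed promoters were named after their values were seen. The members and gene lists were chosen with earlier results of these data known. Each test was limited to the spread between 7 and 8 knockdowns.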

Additional observations from a re-analysis of the deposited data

Results flagged for a closer look

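In 116 groups of 7 or 8 knockdowns checked for a value far from the others, 12 such values were found, where chance flags about 1 in 20 independent groups. Most of the genes checked were chosen after their values were seen and several move together in shMed17, so the number found is not to be read against that share. Of these, 10 belong to shMed17 within the head. It had the highest Krt18, 252.6 RPKM with the next head knockdown at 119.2 RPKM, and the highest Krt8, 166.6 RPKM with the next at 79.14 RPKM. Ccn1 was at 123.8 RPKM with the next at 75.39 RPKM. Dysf was at 4.115 RPKM with the next at 1.866 RPKM, and Fos at 1.744 RPKM with the next at 1.083 RPKM. It had the lowest Pou5f1, 284.3 RPKM with the next at 371.4 RPKM, the lowest Klf4, 11 RPKM with the next at 21.33 RPKM, and the lowest Wdr12, 12.37 RPKM with the next at 15.26 RPKM. Its size of change was 0.3252 (log2) with the next at 0.1965, and its number of changed genes was 6142 with the next at 2901.

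The remaining values belong to shMed26 within the middle module, in genes of the primitive endoderm. Sox17, a transcription factor of endoderm, stood at 6.333 RPKM with the next at 3.212 RPKM, and Lama1 at 82.77 RPKM with the next at 47.99 RPKM.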

How the results depend on the processing

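The count of genes that differ between the modules, 1 with the settings of the report, was 0 with a pseudocount of 0.1, with no filter on low values, with the fall or the percent of target left in the fit, with the upper tail subunits added to the head, without replicate 1 or replicate 2, and 0 to 1 without single knockdowns. It was also 0 in 3 settings added after the data were seen: without shMed4, shMed10, shMed17 and shMed19, without shMed18 and shMed20, and with the size of change in the fit. It was 6338 with the library as unit. With the replicate block it was 0, with an adjusted p of 0.0614 (limma) for Aoah. The labels do not say that a number marks a shared batch. The differences between replicate 1 and replicate 2 were weakly correlated between knockdowns. The correlations of the 105 pairs ran from 0.00509 to 0.228 with a median of 0.118, and were over 0.1 in 63 of them. This is a hint of pairing from the data and not from the design. Replicate 2 was also the deeper library in every head and middle knockdown and in control_B. The part of depth in these correlations was not tested.

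At equal fall the count stayed at 0 in all 23 alternatives. The 421 genes that follow the fall became 74 with a pseudocount of 0.1, 0 with no filter, 252 with upper-quartile scaling, 90 with summed transcripts, 0 to 9 from 1 replicate and 0 to 1047 without single knockdowns. The difference in fall ran from 0.33 to 0.50 from 1 replicate, and passed without replicate 1 (exact permutation p = 0.0455), and from 0.29 to 0.51 without single knockdowns. The difference in size of change ran from -0.118 to -0.0697 without single knockdowns. The number of genes changed against control without single libraries was 510 to 687 for shMed18, 783 to 924 for shMed20, 695 to 786 for shMed9, 1032 to 1198 for shMed6, 1280 to 1509 for shMed11 and 1624 to 1842 for shMed21. The cause of these shifts was not tested. The sign of the difference changed in 122 values of 39 named genes, and 0 of these values passed (limma); for Krt18 and Ccn1 it became 0.09555 and 0.05578 with the size of change in the fit. Under other scalings, medians of lists changed sign where they were 0.0318 or less in size. Differences under about 0.15 (log2) are within the usual interval of 15 knockdowns.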
